A study of Mus musculus with 4 samples.

Results

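The transcripts described here are 10 circadian clock genes, taken by symbol from a table of 39179 genes. They are the transcriptional activators Arntl, Clock and Npas2, the repressors Per1, Per2, Per3, Cry1, Nr1d1 and Nr1d2, and the output gene Dbp. Each symbol matched 1 row. They were measured in RNA from mouse epididymal white adipose tissue, the fat pad that lies along the epididymis of males. The 4 libraries fall into 2 groups of 2. The WT group is Nck2+/+, and the KO group is labelled Nck2 mutant and described as Nck2-/-. Both groups share a mixed genetic background and had no treatment named in the labels. The sources used here give neither age, nor time of day at collection, nor the way the allele was made. The labels do not say whether the libraries of a group come from different animals. The p-values then measure only the spread between these libraries, which may be technical.

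The clock is a feedback loop of transcription. ARNTL (also called BMAL1) pairs with CLOCK, or with its relative NPAS2, and switches on genes that carry E-box elements, among them the Per, Cry, Nr1d and Dbp genes. PER and CRY proteins then block that pair. NR1D1 and NR1D2 (REV-ERB alpha and beta) repress Arntl through ROR elements (ROREs), the sites that ROR receptors use to activate it, so that Arntl transcript runs roughly opposite to Nr1d1 and Dbp over the day. DBP activates genes with D-box elements. In white fat, as in liver, these transcripts cycle over the day and the clock drives part of lipid metabolism.

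The members' promoters were searched for the letters of these elements. A match describes the sequence and is not shown here to be a working site. RefSeq promoter windows (GRCm38.p6, 250 bases before to 50 after a start site) were present for 9 of the 10 genes, in 13 windows. Per2 had no entry. Both strands were searched for the E-box CACGTG, for the D-box, written TTATGTAA or TTACGTAA, and for the RORE. No 2 matches overlapped. A match was found in 4 members. They are printed 5′ to 3′ on the strand of the gene, with the match in capitals, to show what these letters look like in members of the loop.
Arntl, RORE, chr7:113207528-113207556, plus strand: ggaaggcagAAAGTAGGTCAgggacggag
Per3, D-box, chr4:151044786-151044900, minus strand: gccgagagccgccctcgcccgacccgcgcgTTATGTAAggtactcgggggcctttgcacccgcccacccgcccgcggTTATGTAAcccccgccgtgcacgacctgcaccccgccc
Per1, E-box, chr11:69098743-69098828, plus strand: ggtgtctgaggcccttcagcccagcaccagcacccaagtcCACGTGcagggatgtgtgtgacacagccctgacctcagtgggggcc
Cry1, E-box, chr10:85185069-85185154, minus strand: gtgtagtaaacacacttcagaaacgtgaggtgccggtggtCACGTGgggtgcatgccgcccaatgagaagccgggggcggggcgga
The Arntl match begins at base 27 of the transcribed sequence, counted from the start site of its window. The Per1 window belongs to a start site inside the annotated gene. Per3 holds the D-box at positions -205 and -158 before its start. Of 32851 promoter windows of this length, 7.15% held the E-box, 1.06% the D-box and 0.384% the RORE. For the windows of Clock, Npas2, Nr1d1, Nr1d2 and Dbp the search found none of these letters, which says nothing about elements elsewhere.

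The libraries held between 31831904 and 37980391 reads assigned to genes, of which the 10 clock genes took 0.0531% to 0.0663%. Adipocyte markers were present in every library, and all 8 were higher in KO, by 1.83 on the log2 scale at the median, and their summed level was 219539 to 311839 normalized counts in WT against 932084 to 1078274 in KO. All 8 epididymis and male tract markers were lower, at 1146396 to 1430747 in WT against 345 to 467 in KO, where Adam7, Lcn5, Defb22 and Pax8 had no read in KO replicate 1 and Lcn5 had none in KO replicate 2. The 6 smooth muscle markers (Myh11, Acta2, Cnn1, Tagln, Des and Actg2) were lower, while the pericyte markers Rgs5 (0.52, limma adjusted p = 0.0738) and Cspg4 (-0.23, adjusted p = 0.474) did not pass. The summed level of these 8 was 422624 to 548503 in WT against 24379 to 27801 in KO. Macrophage markers were higher in 8 of 8, endothelial markers in 6 of 8 and progenitor and fibroblast markers in 1 of 8. Over all genes tested, 22.4% were higher and 24.4% lower in KO at a limma adjusted p under 0.05. Nck2 itself read 1279 and 1667 in WT and 1076 and 947.3 in KO (log2 fold change -0.53, limma adjusted p = 0.0509). Nck2 transcript was thus still counted in the KO libraries, and which part of the gene the allele removes is not known from the labels. The marker levels differed between the groups together with the genotype label, and their part in the clock values below was not tested. In bulk tissue, fewer cells of a type and less RNA per cell cannot be told apart.

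Of the activators, Arntl rose in KO, while Clock and Npas2 did not pass the test. Values are the authors' normalized read counts, that is, reads divided by a size factor for each library. These factors did not simply follow the read totals. A fold change is the KO mean minus the WT mean of log2(normalized count + 1), given with its standard error (SE). The p-values come from limma, adjusted by Benjamini-Hochberg over 16710 genes at a threshold of 0.05. Arntl (ENSMUSG00000055116, GRCm38 chromosome 7, 113207465 to 113314126) was at 674.5 and 718.3 in the WT libraries, whereas KO gave 1179 and 1145. The groups were far apart compared with the distance between replicates. The log2 fold change was 0.74 (SE 0.075, adjusted p = 0.00336), or 1.67-fold. Leaving out any single library gave 0.69 to 0.78, and Arntl passed in each of the 14 alternative fits. Set against the 8 adipocyte markers, which were themselves higher in KO, the Arntl change was -1.17, and against the 8 endothelial markers it was -0.04, both without a test.

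Clock (ENSMUSG00000029238, chromosome 5, 76209868 to 76304792), whose protein is the usual partner of ARNTL, was at 3165 and 3363 in WT, whereas KO gave 3531 and 3969. Both KO libraries lay above both WT libraries, but the change of 0.20 (SE 0.086) did not pass (adjusted p = 0.126). Npas2 (ENSMUSG00000026077, chromosome 1, 39193731 to 39363236), which can stand in for Clock, had the fewest counts of the 10, at 145.7 and 174 in WT and 246.4 and 152.9 in KO. Its groups overlapped. The fold change of 0.28 (SE 0.28, adjusted p = 0.446) rested on KO replicate 1, and without that library it was -0.06.

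Of the Period genes, Per3 fell and the others did not pass. Per3 (ENSMUSG00000028957, chromosome 4, 151003652 to 151044665), the gene with the paired D-boxes shown above, was at 2583 and 2399 in WT, whereas KO gave 1464 and 1484. The KO libraries nearly coincided and lay well below both WT libraries. The change was -0.76 (SE 0.068, adjusted p = 0.00259), and Per3, like Arntl, passed in each of the 14 alternatives. Per1 (ENSMUSG00000020893, chromosome 11, 69095217 to 69109960), which also responds acutely to hormones and stress signals, was at 2741 and 2322 in WT and 1346 and 2275 in KO. KO replicate 2 thus came close to the lower WT library. The change of -0.53 (SE 0.275) did not pass (adjusted p = 0.183). Without KO replicate 2 it was -0.91 (adjusted p = 0.0198), and without KO replicate 1 it was -0.15 (adjusted p = 0.436).

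Per2 (ENSMUSG00000055866, chromosome 1, 91415982 to 91459324), the Period gene with the best known part in the core loop, was at 951.6 and 766.6 in WT and 665.2 and 980.8 in KO. The highest and the lowest value were both KO libraries, and the change was -0.08 (SE 0.228, adjusted p = 0.791). Cry1 (ENSMUSG00000020038, chromosome 10, 85131700 to 85185064), encoding a strong repressor of the ARNTL and CLOCK pair whose transcript normally peaks later than the Per genes, was at 373.9 and 411.2 in WT and 350.4 and 443 in KO. Its groups overlapped as well, with a change of 0.01 (SE 0.154, adjusted p = 0.974). Neither gene passed in any of the 14 alternatives, and the sign of each turned when single libraries were left out.

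The paralogs Nr1d1 and Nr1d2, which encode nuclear receptors that bind the same element and usually cycle nearly in phase, had changes of opposite sign. Nr1d2 (ENSMUSG00000021775, chromosome 14, 18204054 to 18239127) was at 3810 and 3494 in WT and 2118 and 2351 in KO, and fell by 0.71 (SE 0.087, adjusted p = 0.00518). Nr1d1 (ENSMUSG00000020889, chromosome 11, 98767932 to 98775333) was at 5273 and 3526 in WT and 8057 and 6453 in KO. Both KO libraries were above both WT libraries for Nr1d1 and below them for Nr1d2. The Nr1d1 change of 0.74 (SE 0.232) missed the threshold (adjusted p = 0.0596). It passed with DESeq2 (adjusted p = 0.00926) and with the replicate number as a block (adjusted p = 0.0191), and did not pass with edgeR (adjusted p = 0.0739). Without WT replicate 2 the Nr1d1 change was 0.45, and without WT replicate 1 it was 1.03. The Nr1d2 call was lost on leaving out WT replicate 1 (-0.65, adjusted p = 0.0602) or WT replicate 2 (-0.77, adjusted p = 0.0609), and these fits have fewer degrees of freedom.

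The ratio of Nr1d1 to Nr1d2 normalized counts within a library was 1.38 and 1.01 in WT against 3.8 and 2.74 in KO. Such a ratio is not corrected for gene length and serves to compare libraries, and library scaling leaves it as it is. Its log2 difference between groups was 1.45, against a distance between replicates of 0.46 in WT and 0.47 in KO. An exact two-sided permutation test gave p = 0.333, the smallest that 2 libraries against 2 allow. Any ratio without overlap gets this value, and the pair was chosen with results of these data known, so the test decides nothing here. Nr1d1 shares 263 of its 3077 exonic bases (8.55%) with Thra, the thyroid hormone receptor alpha gene on the opposite strand. No source used here says whether counting took account of strand. Reads of a shared stretch may therefore belong to either gene. Thra was at 3516 and 3758 in WT and 3918 and 4192 in KO (log2 fold change 0.16, adjusted p = 0.149).

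Dbp (ENSMUSG00000059824, chromosome 7, 45705088 to 45710203), a PAR bZIP factor and one of the strongest cycling transcripts in most tissues, had the greatest fall of the 10. It was at 1801 and 1290 in WT, whereas KO gave 610.9 and 833.5. Both groups were spread, yet they did not overlap. The change was -1.09 (SE 0.232, adjusted p = 0.0216). The call was lost on leaving out WT replicate 1 (-0.85, adjusted p = 0.136), WT replicate 2 (-1.33, adjusted p = 0.0902) or KO replicate 1 (-0.87, adjusted p = 0.0645), and with the replicate block (adjusted p = 0.051). Dbp shares 539 of 2993 exonic bases (18%) with Sphk2 on the opposite strand. Sphk2, which encodes a sphingosine kinase, was at 1564 and 1664 in WT and 1237 and 1326 in KO (log2 fold change -0.33, adjusted p = 0.0257).

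**Figure D1:**
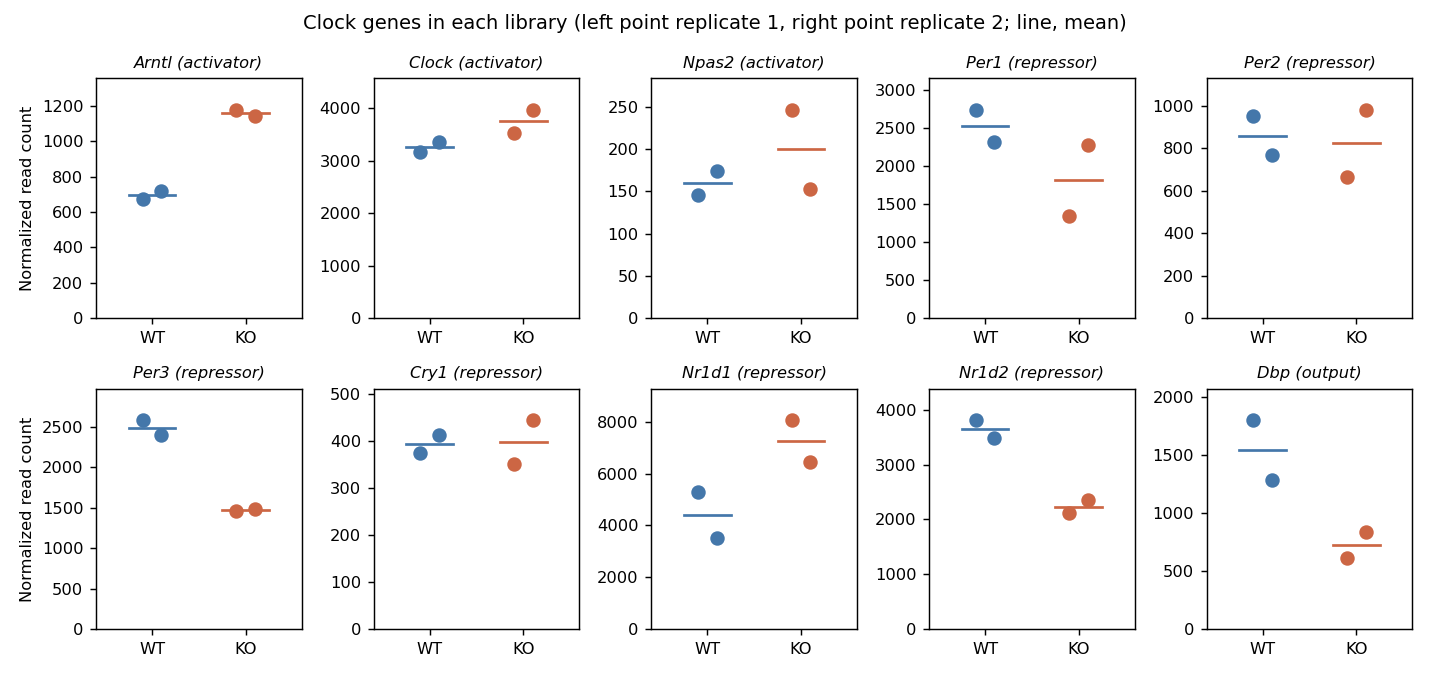
Normalized read count (vertical axis, from 0) of each of the 10 clock genes in the 2 WT and 2 KO libraries; points are libraries and lines are group means. Arntl is higher in KO, Per3, Nr1d2 and Dbp are lower, and the KO replicates are wide apart for Npas2, Per1 and Per2.

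Of the 10 members, 1 rose (Arntl), 3 fell (Per3, Nr1d2 and Dbp) and 6 did not pass. Over all genes tested 46.7% passed, with 22.4% higher and 24.4% lower, so 4 of 10 is close to the background and the number of changed members is not a result about the clock. The 10 genes all passed the filter on low values. In 7 of the 10 the groups did not overlap, with KO above in 3 and below in 4. This held for 79.5% of all genes tested, 38.9% above and 40.6% below. Their median log2 fold change was -0.04, and that of all genes was -0.011. In the authors' deposited table, 5 members had an adjusted p under 0.05, the added one being Nr1d1 (log2 fold change 0.72, adjusted p = 0.0088).

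**Figure D2:**
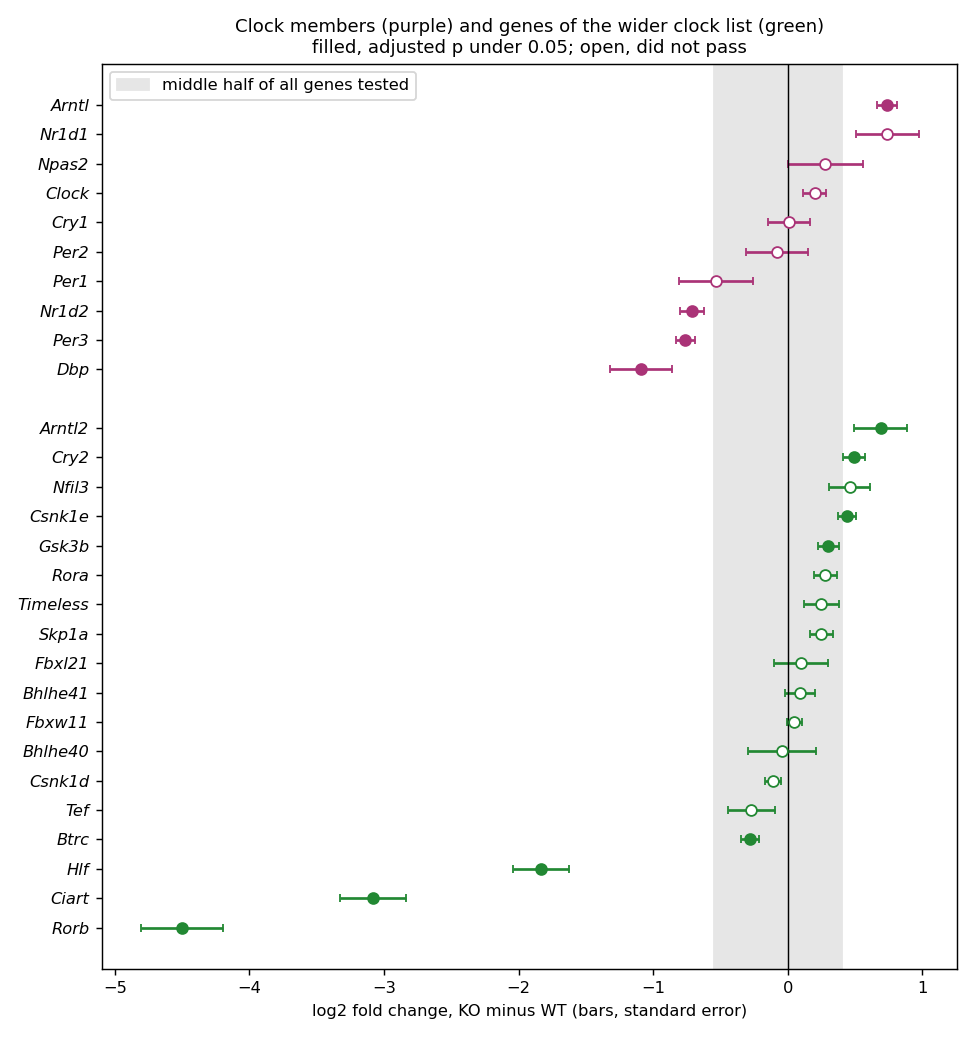
Log2 fold change, KO minus WT, of the 10 members (purple) and of further clock genes from the wider list (green), with standard errors as bars; filled points passed at an adjusted p under 0.05, and the grey band spans the middle 50% of all genes tested, from -0.55 to 0.40. Dbp, Per3 and Nr1d2 lie left of the band, Arntl and Nr1d1 right of it, and Rorb, Ciart and Hlf fall furthest in the wider list.

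The activator and repressor arms were then compared inside each library, which leaves out library scaling. The mean log2 level of Arntl, Clock and Npas2 minus that of Per1, Per2, Per3, Cry1, Nr1d1 and Nr1d2 was -1.50 and -1.15 in the WT libraries and -0.48 and -0.92 in the KO libraries. The activators thus stood higher against the repressors in both KO libraries. The difference between group means was 0.63. The gap between WT replicate 2 and KO replicate 2 was smaller than the distance between replicates, which was 0.35 in WT and 0.44 in KO. The activator mean alone was 0.41 higher in KO, without overlap. The repressor mean was 10.91 and 10.71 in WT and 10.46 and 10.71 in KO, and WT replicate 2 and KO replicate 2 gave the same value. No p is given for these scores because the members were chosen with results of these data known.

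Arntl paired with single members that fell separated the groups by more than the arms did. The ratio of Arntl to Dbp normalized counts was 0.374 and 0.557 in the WT libraries against 1.93 and 1.37 in the KO libraries. The groups were 1.83 apart on the log2 scale, with replicates 0.57 (WT) and 0.49 (KO) apart. Per kilobase, Dbp remained above Arntl in all 4 libraries. Against Per3, Arntl was 0.261 and 0.299 in WT and 0.805 and 0.771 in KO. Against Nr1d2 it was 0.177 and 0.206 in WT and 0.557 and 0.487 in KO. These pairs set Arntl, the member that rose, against the 3 members that fell. Their wider separation follows from that choice and restates the fold changes given above. Against Nr1d1, which represses Arntl, the ratio was 0.128 and 0.204 in WT and 0.146 and 0.177 in KO. There the groups overlapped and the log2 difference of the means was 0.00 to 2 decimals. With Per1, Per2 and Per3 as the repressor arm the difference between groups was 0.86, and with Nr1d1 and Nr1d2 it was 0.39. Some ratios inside a family differed as well: Per1 to Per2 was 2.88 and 3.03 in WT but 2.02 and 2.32 in KO. Per3 to Per2 was 2.71 and 3.13 in WT but 2.2 and 1.51 in KO. Per1 to Per3 overlapped between groups, at 1.06 and 0.968 in WT and 0.92 and 1.53 in KO. Arntl to Clock, the partners of the activating pair, was 0.213 and 0.214 in WT against 0.334 and 0.288 in KO. The time of day at which each library's tissue was collected is not in the labels, and its part in these differences was not tested.

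**Figure D3:**
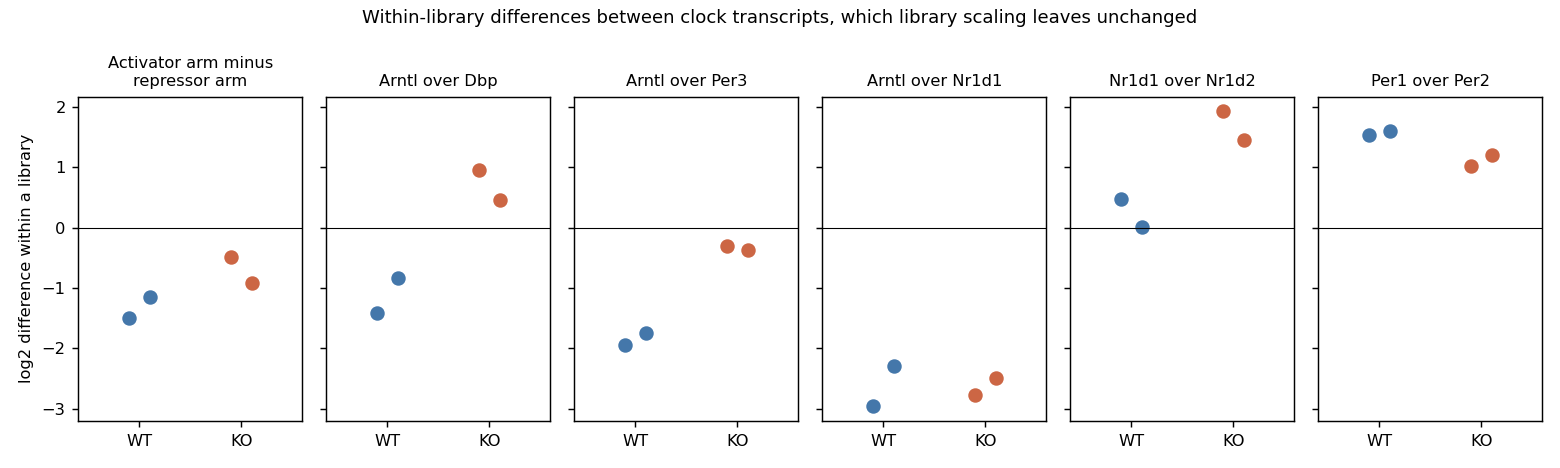
Log2 difference between clock transcripts inside each library (vertical axis), for the 2 WT and 2 KO libraries, each point a library. Arntl over Dbp runs from -1.42 to -0.84 in WT and from 0.46 to 0.95 in KO, Arntl over Nr1d1 overlaps between groups, and Nr1d1 over Nr1d2 is higher in both KO libraries.

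Replicates of a group also differed among themselves, and not by counting error alone. In the KO group, replicate 2 exceeded replicate 1 for Per1 by 1.69-fold (exact 95% counting interval 1.58 to 1.81) and for Per2 by 1.47-fold (1.33 to 1.63). Replicate 1 exceeded replicate 2 for Npas2 by 1.61-fold (1.31 to 2.0). The median gene tested differed 1.11-fold between these libraries, and 89.5% of genes differed by less than Per1. In the WT group, replicate 1 exceeded replicate 2 for Nr1d1 by 1.5-fold (1.43 to 1.56) and for Dbp by 1.4-fold (1.3 to 1.5), against 1.1-fold for the median gene. WT replicate 1 was the higher one for the 3 Per genes, both Nr1d genes and Dbp. It was the lower one for Arntl, Clock, Npas2 and Cry1. The WT ratios of Arntl (1.06), Clock (1.06), Per3 (1.08) and Nr1d2 (1.09) were below that of the median gene. In the KO group, replicate 1 was the higher one for 3 of 10 members (Arntl, Npas2 and Nr1d1), so the KO libraries did not split in the same way. Counting error covers the WT ratios of Npas2 (1.19, interval 0.955 to 1.5) and Cry1 (1.1, interval 0.955 to 1.27). Arntl was among the steadiest, with replicate ratios of 1.06 (0.959 to 1.18) in WT and 1.03 (0.947 to 1.12) in KO that counting error covers. Intervals cover counting error only, since the reads carry no molecular identifiers and may include copies of one molecule.

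**Figure D4:**
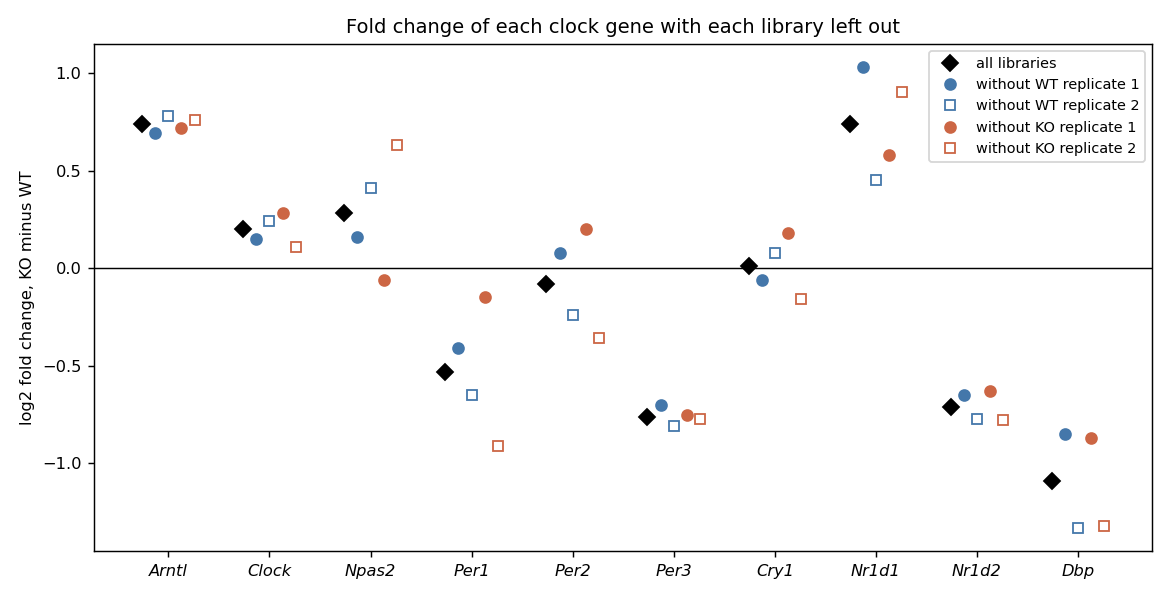
Log2 fold change, KO minus WT (vertical axis), of each clock gene with all 4 libraries (diamonds) and with each library left out in turn. Arntl, Per3 and Nr1d2 keep within a narrow range, whereas Npas2, Per2 and Cry1 cross 0 and Per1 runs from -0.91 to -0.15.

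Levels between genes were compared per kilobase of annotated exon (GENCODE M21). In WT the order of mean normalized counts per kilobase was Nr1d1 (1430), Nr1d2 (675), Dbp (517), Per1 (450), Per3 (259), Clock (238), Per2 (147), Cry1 (118), Arntl (92.6) and Npas2 (33.4). Dbp and Per1 overlapped between libraries and the other neighbours did not. In KO it was Nr1d1 (2360), Nr1d2 (413), Per1 (322), Clock (273), Dbp (241), Arntl (154), Per3 (153), Per2 (141), Cry1 (119) and Npas2 (41.7). Neighbours overlapped there along the run from Nr1d2 to Dbp and again from Arntl to Cry1. Nr1d1 led and Npas2 came last in both groups. Annotated exons include ones a tissue may not use, so a per kilobase level can be too low for genes with long alternative exons, such as Clock with 13727 exonic bases.

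A wider list of 20 clock genes extended the picture: 5 rose, 5 fell and 10 did not pass, which is 10 of 20 against 46.7% of all genes. The median log2 fold change was 0.10. Among the receptors that act on the RORE, Rorb fell by 4.50 (SE 0.306, adjusted p = 0.00148), from 165.1 and 189.8 in WT to 8.433 and 5.579 in KO. Rorb is best known from nervous tissue and retina. Rora, a relative of Rorb, was at 1244 and 1143 in WT and 1383 and 1511 in KO (log2 fold change 0.28, adjusted p = 0.0574).

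Relatives of Dbp followed in part. Hlf, another PAR bZIP factor, fell by 1.83 (SE 0.208, adjusted p = 0.00428), from 1371 and 1434 to 323.3 and 480.9. Tef, the remaining factor of that family, was at 6025 and 4566 in WT and 3943 and 4790 in KO, overlapped, and did not pass (-0.27, adjusted p = 0.263). Nfil3, the repressor that competes at D-boxes, was at 332.2 and 389.8 in WT and 449.7 and 542.3 in KO (0.46, adjusted p = 0.0673). Ciart, a cycling repressor of the ARNTL and CLOCK pair listed in the file under its older name Gm129, fell by 3.08 (SE 0.247, adjusted p = 0.00201), from 134.5 and 114.4 to 13.12 and 14.51. Rorb and Ciart passed in each of the 14 alternatives. The Hlf call was lost on leaving out WT replicate 1 (adjusted p = 0.0691) or WT replicate 2 (adjusted p = 0.0859).

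Further partners and regulators of the clock proteins included genes that rose, a gene that fell and genes that did not pass. Cry2, the second cryptochrome, rose by 0.49 (SE 0.081, adjusted p = 0.011), from 2314 and 2166 to 2995 and 3301, and its ratio to Cry1 went from 6.19 and 5.27 in WT to 8.55 and 7.45 in KO. Arntl2, the paralog of Arntl, rose by 0.69 (SE 0.197, adjusted p = 0.0465), from 133.5 and 117.2 to 178 and 231. It did not pass with edgeR (adjusted p = 0.052), DESeq2 (adjusted p = 0.0617) or the replicate block (adjusted p = 0.0954), nor without KO replicate 2 (adjusted p = 0.139). Csnk1e, a kinase that marks PER proteins for decay, rose by 0.44 (adjusted p = 0.00916), while Csnk1d, its close relative, did not pass (-0.11, adjusted p = 0.206). Gsk3b, a kinase with clock protein substrates, rose by 0.30 (adjusted p = 0.0382), but leaving out any library gave an adjusted p of 0.0523 to 0.188 and the replicate block one of 0.0924. Btrc, which acts in PER degradation, fell by 0.28 (adjusted p = 0.0326), and leaving out any library gave an adjusted p of 0.0918 to 0.145 and the block one of 0.0831. Without WT replicate 1, and likewise without WT replicate 2, none of the 5 genes that rose passed in limma. Bhlhe40 and Bhlhe41, E-box repressors, overlapped between groups (-0.04 and 0.09).

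Of 10 transcripts known as clock outputs in several tissues, 3 rose, 2 fell and 5 did not pass, with a median of -0.20. The share that passed, 5 of 10, is close to the 46.7% over all genes. Wee1, a cell cycle kinase with E-box control, fell by 1.54 (SE 0.139, adjusted p = 0.00259), from 332.2 and 310.8 to 115.2 and 104.9. The call was lost on leaving out WT replicate 1 (adjusted p = 0.0521) or WT replicate 2 (adjusted p = 0.0599). Marveld1 fell by 0.59 (adjusted p = 0.00444), and Tspan4 and Leo1 rose by 0.88 (adjusted p = 0.0063) and 0.46 (adjusted p = 0.014).

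The genes whose profile over the 4 libraries came nearest to Arntl, by Euclidean distance between centred log2 values, were Ninj1 (0.032), Pnpla7 (0.055) and Dpp7 (0.058). They were not rare, since 399 of 13923 genes lay within 0.2 of Arntl. Nearest to Dbp were Ppfia2 (0.12), Lax1 (0.15) and 1810062G17Rik (0.185), and 4 genes lay within 0.2. With 4 libraries such a likeness describes these samples and no more.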

How the data were processed

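PolyA RNA of 4 libraries (2 WT, 2 KO, grouped by their titles) was analysed. The submitters' processing notes name GRCm38, DESeq2 1.4.5, HTSeq 0.5.3, CASAVA 1.8 and TopHat2 2.0.10. The authors deposited normalized counts, a signal equal to reads divided by a library size factor. The authors' table also holds log2 fold changes, p-values and a score (the test statistic). Whole reads were recovered from the deposited signal (100% of values within 0.01 of a whole number).

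The 16710 genes whose mean reached 10 entered limma 3.58.1 (R 4.3.3, pseudocount 1, intensity trend, Benjamini-Hochberg at 0.05), two-sided. The pseudocount shrinks folds of genes with few reads. The steps were run on simulated data in which far fewer genes changed than were called here. That run does not show how the steps perform on these data. Alternatives were edgeR 4.0.16 or DESeq2 1.42.0 on the recovered reads, TMM or upper-quartile scaling, a pseudocount of 0.5 or 5, a minimum mean of 50 or none, robust moderation, the replicate block, and leaving out each library. Levels relative to the adipocyte or the endothelial markers were added after the data were seen.

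Members and lists were chosen with earlier results of these data known. Text names every member, the wider clock genes that passed, except some that are not reported here (others by role, chosen after their values were seen), up to 4 output and 4 glucocorticoid-responsive genes and 2 immediate early genes by smallest p, and the 3 genes nearest in pattern to Arntl and to Dbp among those with a mean of 50 or more. Mt1 was added beside Mt2 after its values were seen. Ciart was matched by gene ID.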

Additional observations from a re-analysis of the deposited data

How the results depend on the processing

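Over 14 alternative fits, Arntl and Per3 kept their direction and their call. Clock, Per1, Nr1d1, Nr1d2 and Dbp kept their direction. Members called higher numbered 2 with DESeq2 and 2 with the replicate block, against 1 in the reported fit, the added gene being Nr1d1. With single libraries left out, 1 member was called higher throughout and 1 to 4 lower, against 3. For the wider list these ranges were 0 to 3 higher and 2 to 4 lower, against 5 and 5. Where limma called 0 higher (without either WT library), 3 genes had an unadjusted p under 0.05, and with all libraries edgeR and DESeq2 each called 4. With the replicate block 2 of that list were higher and 3 lower. Over all genes, leaving out a library gave 650 to 2849 higher and 1163 to 3477 lower, against 3735 and 4074. Leaving out single libraries moved Npas2 between -0.06 and 0.63, Per2 between -0.36 and 0.2, and Cry1 between -0.16 and 0.18, and edgeR gave -0.01 for Cry1. The cause of these moves was not tested. Fits without a library leave 1 sample in its group, which is assumed to vary like the other group, and have fewer degrees of freedom.

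The arm difference of 0.63 was 0.96 with Arntl alone as the activator arm, and between 0.41 and 0.85 with single libraries left out. Relative to the 8 adipocyte markers, an alternative chosen after seeing the data and given without a test, the changes of Arntl, Clock, Npas2, Cry1 and Nr1d1 became -1.17, -1.71, -1.62, -1.9 and -1.17. Relative to the 8 endothelial markers they became -0.04, -0.57, -0.49, -0.77 and -0.03. The changes of Per1, Per2, Per3, Nr1d2 and Dbp, already negative, became -2.43, -1.99, -2.66, -2.62 and -3.0 relative to the adipocyte markers. Relative to the endothelial markers these became -1.3, -0.85, -1.53, -1.48 and -1.87. Both scalings subtract the same amount from every gene, so they leave the within-library comparisons as they were. Same-numbered WT and KO libraries did not deviate together over all genes (correlation -0.00904), and no label pairs them. A single correlation over all genes cannot show a pairing that touches only some genes. Whether these libraries were paired is therefore not known.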

Other observations

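Glucocorticoids follow a daily rhythm and can reset Per1, so a list of 10 glucocorticoid-responsive genes was described beside the clock. Of these, 2 rose, 2 fell and the other 6 missed the threshold, and the median change was -0.11 on the log2 scale. The share that passed, 4 of 10, is close to the 46.7% over all genes. Fkbp5, a chaperone partner of the glucocorticoid receptor, was at 8808 and 6174 in WT and 1434 and 1650 in KO, and fell by 2.26 (limma adjusted p = 0.00236, passing in each of 14 alternatives). Errfi1 fell by 1.3 (adjusted p = 0.0115), whereas Pdk4, a brake on pyruvate oxidation, rose by 1.48 (adjusted p = 0.00228) and Mt2, a metallothionein, by 0.86 (adjusted p = 0.00723). Mt1, the other metallothionein of the list, did not pass (-0.03, limma adjusted p = 0.731).

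Of 10 immediate early genes, which respond within minutes to handling and tissue dissociation, 4 rose and 6 did not pass in limma, with a median of 0.38, where 46.7% of all genes passed and 22.4% were higher. Fos was at 205.8 and 215.9 in WT and 469.4 and 538.9 in KO (1.25, adjusted p = 0.00306), and Atf3 rose by 1.08 (adjusted p = 0.0144). Per1, which can be induced in the same way, was lower in both KO libraries than in both WT libraries and did not pass. Its KO replicate 2 (2275) lay close to WT replicate 2 (2322). The part of handling in these values was not tested.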
